A study of Caenorhabditis elegans with 18 samples.

Results

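The mRNA of gravid adult *Caenorhabditis elegans* carrying the deletion allele *tcer-1(tm1452)* was compared with that of wildtype animals, gene by gene, keeping genes whose normalized counts averaged at least 2 across the 9 mRNA libraries of the study. These were 17037 of the 29970 genes in the table, and 9037 of the others were at 0 in every library. The tested animals were *tcer-1(tm1452)* (strain CF2166), a second mutant, *tcer-1(glm27)* (strain AGP278), in which genome editing had removed the gene, and wildtype (strain N2), with 3 biological replicates each. All were collected as gravid adults at 72 h after synchronized larvae were plated, at 20 °C on the *Escherichia coli* strain OP50, with no other treatment, and were not sorted by tissue, so that each library holds the RNA of whole animals and of the embryos inside them. The study's text gives a limit of the *tm1452* strain, which is that its animals do not develop in step with each other, whereas those of *glm27* do. A difference between *tcer-1(tm1452)* and wildtype animals in the stages present therefore cannot be told apart here from an effect of the allele at a fixed stage. In the same way, fewer cells of a type and less RNA per cell cannot be told apart in whole animals. The replicates were described as biological, and where nothing states how the cultures were separated the p-values measure only the spread between these samples, which may be technical.

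TCER-1 is a transcription elongation and splicing factor of the worm, and is known for its part in germline-dependent longevity and in repressing immunity in fertile adults. A hermaphrodite first makes sperm, as a larva, and then switches to oocytes for the rest of its life, while its skin secretes a new collagen cuticle at each molt. RNA from the embryos of a gravid animal adds a set of early zygotic genes, many of them short-lived transcripts of cell fate regulators. A whole-animal library thus holds sperm, oocyte, somatic and embryonic RNA in 1 mixture.

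The normalized count of *tcer-1* itself, which is the check of the labels, was 959, 862 and 1026 in *tcer-1(tm1452)*, against 5877, 6034 and 6346 in wildtype. All 3 mutant libraries lay far below the wildtype libraries, with a log2 fold change of -2.68 (standard error 0.07, limma adjusted p = 4.19e-13). In *tcer-1(glm27)* the values were 529, 496 and 470. *tcer-1* lies on chromosome II of WBcel235 from 7045874 to 7050071, reverse strand. Of its exonic stretches of 50 bases, 31.1% also occur elsewhere in the genome, at 7043118 to 7044538 on the same chromosome, where the pseudogene *ZK1127.6* lies. *ZK1127.6* was at 353, 338 and 338 in *tcer-1(tm1452)*, against 1558, 1687 and 1723 in wildtype, so that reads of the gene and its pseudogene cannot be fully told apart.

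A gene was called when the adjusted p of limma was under 0.05 and the log2 fold change, on log2 of the normalized count plus 1, was at least 1. By this rule 3433 genes were higher in *tcer-1(tm1452)* than in wildtype (20.2% of those tested) and 1280 were lower (7.51%). The increases were also the larger changes, since 749 genes rose by at least 16-fold and 17 fell by as much. At any size, 6019 genes were higher at an adjusted p under 0.05 (35.3%) and 5811 were lower (34.1%). Over all of them the log2 fold change had a median of 0.02. Libraries of a genotype correlated at 0.986 to 0.988 for *tcer-1(tm1452)* and at 0.987 for wildtype over log2 values, against 0.906 to 0.917 between *tcer-1(tm1452)* and wildtype libraries. No library stood apart from its group, and depth was about 18053249 to 27758305 reads in *tcer-1(tm1452)* and 20586509 to 25994991 in wildtype. The share of counts in the 10 highest genes was 7.14 to 7.38% in *tcer-1(tm1452)*, against 8.01 to 9.26% in wildtype. A gene that was low in wildtype could enter the test through its level in the mutants alone, so the share of called members in a list refers to the members that passed this minimum.

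**Figure D1:**
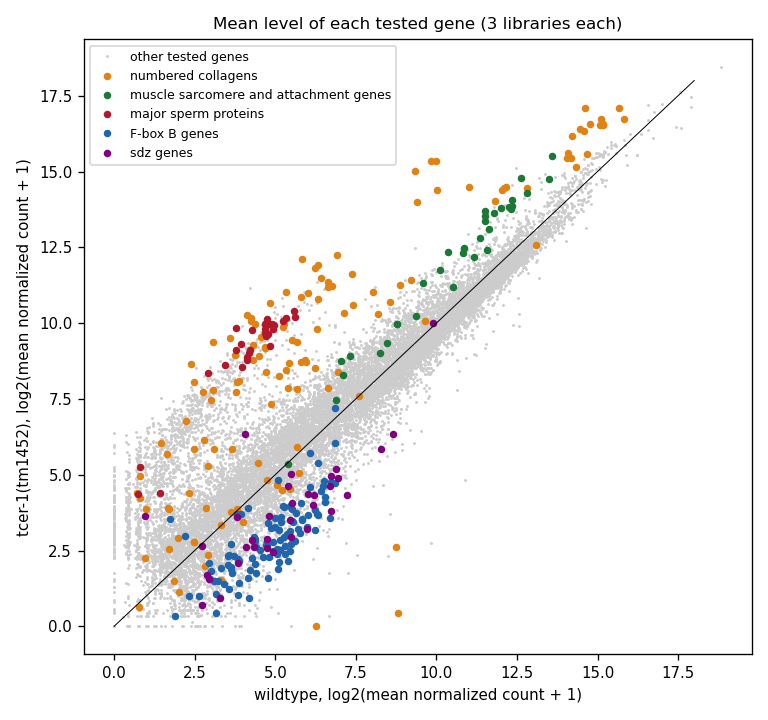
Mean level of each of the 17037 tested genes, as log2 of the mean normalized count plus 1, with *tcer-1(tm1452)* on the vertical axis and wildtype on the horizontal axis (3 libraries each). The line marks equal levels, above which lie all 30 major sperm protein genes and most of the collagen and muscle genes, and below which lie most F-box B and sdz genes.

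Sperm genes made up the most uniform group of increases. The major sperm proteins (MSPs), small cytoskeletal proteins that drive sperm crawling and also signal to oocytes, were called higher at all 30 tested genes of the 35 in the table, beside 20.2% of all genes, and the median log2 fold change was 4.90. The summed normalized count of the MSP genes was 20242, 21902 and 23318 in *tcer-1(tm1452)*, against 556, 762 and 633 in wildtype, a 33.5-fold difference in means (two-sided exact permutation test, p = 0.1, the smallest that 3 libraries against 3 allow). The 3 groups of libraries did not overlap, and *tcer-1(glm27)* lay between, at 4086, 5262 and 4529. MSP genes are near-identical copies, and in 23 of the 35 at least 50% of the exonic stretches of 50 bases recur elsewhere. Their counts may therefore be split between copies, and the sum is firmer than any member. Of the members that share less, 9 of 9 were called higher.

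The largest increase in the family was at *msp-33* (chromosome II, 4892311 to 4892694, reverse strand), with 862, 873 and 1008 in *tcer-1(tm1452)*, against 12.1, 13.6 and 12.64 in wildtype. Its log2 fold change was 6.05 (standard error 0.15, limma adjusted p = 3.29e-13). *msp-79* was at 851, 953 and 840 in *tcer-1(tm1452)*, against 5.18, 22.0 and 27.6 in wildtype, and *msp-38* at 320, 322 and 332, against 7.78, 10.5 and 1.15 in wildtype. *msp-142*, at 390, 423 and 500 in *tcer-1(tm1452)* and 10.4, 23.1 and 16.08 in wildtype, followed the same pattern. None of these 4 genes had a *tcer-1(tm1452)* library within the wildtype range. Since members of the family rose together, the 200 bases before the annotated start of these 4 are shown, from the RefSeq genome of WBcel235 with the gene starts of the Ensembl annotation, with the palindrome AGATCT in capitals where it occurs.
msp-33: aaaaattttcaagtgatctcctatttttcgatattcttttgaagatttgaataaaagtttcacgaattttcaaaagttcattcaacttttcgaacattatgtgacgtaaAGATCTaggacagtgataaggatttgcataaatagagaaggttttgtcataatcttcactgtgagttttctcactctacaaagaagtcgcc
msp-38: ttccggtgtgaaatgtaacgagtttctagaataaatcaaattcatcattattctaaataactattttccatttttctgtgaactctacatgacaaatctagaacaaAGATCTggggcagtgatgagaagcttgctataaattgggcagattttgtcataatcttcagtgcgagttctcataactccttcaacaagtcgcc
msp-79: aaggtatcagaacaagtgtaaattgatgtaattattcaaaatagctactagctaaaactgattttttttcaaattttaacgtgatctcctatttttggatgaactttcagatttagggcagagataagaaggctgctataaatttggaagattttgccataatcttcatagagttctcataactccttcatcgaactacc
msp-142: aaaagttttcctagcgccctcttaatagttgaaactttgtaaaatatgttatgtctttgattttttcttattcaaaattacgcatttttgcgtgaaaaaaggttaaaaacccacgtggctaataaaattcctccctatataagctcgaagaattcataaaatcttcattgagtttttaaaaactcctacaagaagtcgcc

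These windows are chromosome II:4892695-4892894, reverse strand, for *msp-33*, chromosome IV:10143741-10143940, reverse strand, for *msp-38*, chromosome IV:9767155-9767354, reverse strand, for *msp-79*, and chromosome II:5797727-5797926, forward strand, for *msp-142*. The letters AGATCT, which read the same on both strands, were present in 23 of 30 MSP windows (76.7%), against 555 of the 17022 windows of all tested genes (3.26%). The 2 windows without AGATCT belong to genes that rose too. The GATA factor site TGATAA, searched on both strands, was in 7 of 30 MSP windows (23.3%), near its share of 22.5% in all windows, and GTCAT was in 17 (56.7%), beside 25.5% of all windows. The MSP windows are related copies and not independent, and annotated starts need not be the true starts of transcription. A match is a description of these letters only.

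The other spermatogenesis genes moved the same way, with 58 of 69 tested called higher (84.1%, beside 20.2% of all genes) and 0 called lower. Their median log2 fold change was 3.96. *ssp-31* had the largest change among them, at 68, 63.7 and 101 in *tcer-1(tm1452)*, against 0.854, 0 and 0 in wildtype. *ssq-4* was at 1411, 1477 and 1541 in *tcer-1(tm1452)*, against 32.7, 28.2 and 31.8 in wildtype (log2 fold change 5.54, standard error 0.13, limma adjusted p = 2.55e-13). Neither pair of groups overlapped. Of the sperm markers, *gsp-3*, a PP1 phosphatase of sperm, had a log2 fold change of 5.04 and *spe-11*, which sperm carry into the egg, one of 4.85. *spe-9*, the sperm surface ligand for fertilization, was at 22.6, 30.0 and 36.9 in *tcer-1(tm1452)* and 4.11, 11.4 and 11.7 in wildtype (log2 fold change 1.70). In *tcer-1(glm27)* 51 of these 69 genes were called higher, with a median of 2.35, and the test of *tcer-1(tm1452)* against *tcer-1(glm27)* called 53 of the 69 higher, beside 11.4% of all genes.

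Of 9 tested genes of male neurons and seminal fluid, 1 was called higher (11.1%), *cil-7*, beside 20.2% of all genes. So few genes cannot separate these shares. The summed count of the list was 50.4 to 64.6 in *tcer-1(tm1452)*, against 41.8 to 50.2 in wildtype. The polycystin genes of male sensory neurons were at or near 0 in both genotypes. *pkd-2* was at 0, 1.31 and 1.09 in *tcer-1(tm1452)*, against 0, 1.04 and 1.13 in wildtype. *lov-1* was at 0.845, 1.3 and 2.17 in *tcer-1(tm1452)*, against 0, 1.04 and 2.27 in wildtype. Several genes outside the lists were named by the size of their increase alone. The scramblase gene *scrm-6* was at 71.0, 80.5 and 92.9 in *tcer-1(tm1452)* and listed at 0 in all 3 wildtype libraries, and *W09D6.4* was at 165, 200 and 187, against 0.874, 2.09 and 2.28 in wildtype. *C34F11.2* was at 154, 134 and 139 in *tcer-1(tm1452)*, against 6.10, 0 and 0 in wildtype. The largest single increase of all was at *C38D9.2*, with 2184, 2491 and 2189 in *tcer-1(tm1452)*, against 16.8, 18 and 17.9 in wildtype (log2 fold change 6.94, standard error 0.07). *C38D9.2* was at 4304, 3838 and 4020 in *tcer-1(glm27)*. Another, *F45D11.14*, was at 389, 312 and 479 in *tcer-1(tm1452)* and 0, 0 and 60.1 in wildtype, and all its exonic stretches of 50 bases recur elsewhere, so that its reads cannot be assigned with certainty.

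**Figure D2:**
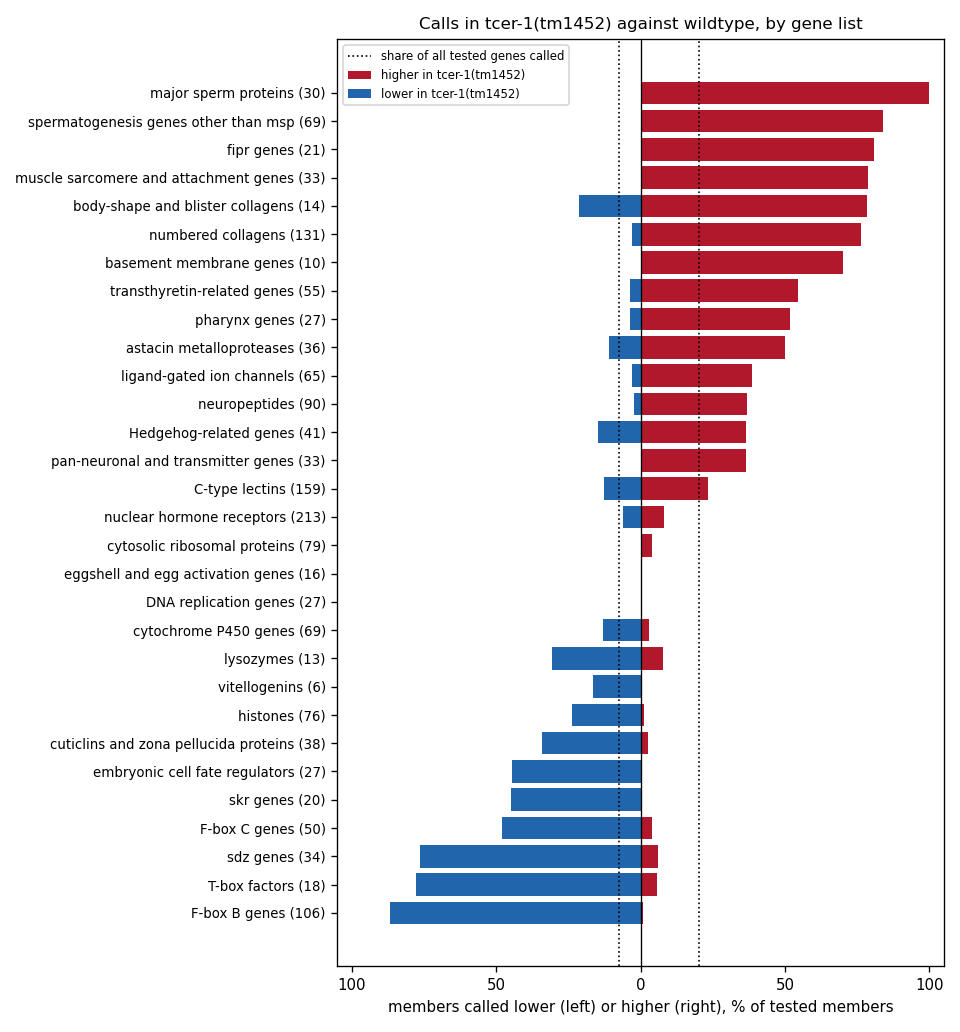
Share of the tested members of 30 gene lists called higher (red, right) or lower (blue, left) in *tcer-1(tm1452)* than in wildtype, with the number of tested members in brackets. Dotted lines mark the shares over all tested genes, 20.2% higher and 7.51% lower. The sperm, muscle and collagen lists reach 76% or more to the right, and the F-box B, T-box and sdz lists reach 76% or more to the left.

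The cuticle collagens were the largest family to rise. Of 131 tested numbered collagen genes (159 in the table), 100 were called higher (76.3%, beside 20.2% of all genes) and 4 lower. Their median log2 fold change was 2.76. Their summed normalized count was 1703207, 1729930 and 1705544 in *tcer-1(tm1452)*, against 499536, 530385 and 520728 in wildtype. The 3.31-fold difference in means far exceeded the spread of either group, and *tcer-1(glm27)* lay between, at 1032437 to 1290774. *col-91* showed the largest log2 fold change, 6.41 (standard error 0.34, limma adjusted p = 7.72e-10), with 347, 421 and 423 in *tcer-1(tm1452)*, against 1.76, 3.13 and 7.95 in wildtype. *col-147* was at 4025, 4401 and 4952 in *tcer-1(tm1452)*, against 60.005, 48.1 and 61.3 in wildtype. *col-126* and *col-7*, at log2 fold changes of 6.37 and 6.24, share 98.8 and 67.1% of their exonic 50-base stretches with other places, so each is uncertain as a single gene. The adult cuticle collagen *col-19* was high in both groups and rose less, to 85560, 83428 and 81158 in *tcer-1(tm1452)*, against 24184, 24556 and 24656 in wildtype (log2 fold change 1.77, standard error 0.07).

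The collagens that shape the body or bound the blistered cuticle behaved in a split way. Of 14 tested, 11 were called higher (78.6%, beside 20.2% of all genes). *rol-8* was at 249, 340 and 295 in *tcer-1(tm1452)*, against 12.35, 2.09 and 18.2 in wildtype. *bli-2* was at 171, 198 and 171 in *tcer-1(tm1452)*, against 7.93, 4.18 and 4.54 in wildtype. *rol-6* had a log2 fold change of 4.09 and *dpy-5* one of 4.78. The other 3 were lower, which were *dpy-14*, *dpy-17* and *sqt-3*, the last pair named here after their values were seen. *sqt-3* was at 620, 693 and 615 in *tcer-1(tm1452)*, against 1678, 1136 and 1310 in wildtype, and *dpy-17* at 648, 600 and 595, against 1680, 1232 and 1364. The annular furrow collagens, which build the rings of the cuticle, held no common direction, with *dpy-8* (log2 fold change 3.79) and *dpy-9* (2.04) higher, *dpy-10* lower (-1.01) and 3 not called, *dpy-7* among them (-0.49).

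The 4 numbered collagens called lower went against the direction of the family. *col-165* was at 0, 0 and 1.09 in *tcer-1(tm1452)*, against 516, 392 and 444 in wildtype, the largest decrease of any gene that entered the ranking (log2 fold change -8.46, standard error 0.35, limma adjusted p = 5.34e-11). *col-74* was at 2.52, 5.24 and 7.62 in *tcer-1(tm1452)*, against 452, 401 and 440 in wildtype. *col-121* was listed at 0 in all *tcer-1(tm1452)* libraries, against 88.3, 61.6 and 79.5 in wildtype. *col-132* was low in both groups, at 0.833, 2.65 and 2.19 in *tcer-1(tm1452)*, against 6.16, 6.27 and 14.8 in wildtype. In *tcer-1(glm27)* the first pair fell as well, with *col-165* at 22.7, 14.4 and 34.6 and *col-74* at 20.9, 8.07 and 36.6, while *col-121* was at 107, 80.8 and 109, above its wildtype mean. The cuticlins, zona pellucida proteins of the cuticle's ridges and inner layer, fell at 13 of 38 tested genes and rose at 1, *cut-4*, beside 7.51 and 20.2% of all genes. *cut-3*, needed for the lateral ridges of young larvae, was at 2.51, 3.94 and 5.45 in *tcer-1(tm1452)*, against 424, 308 and 353 in wildtype, and at 18.9, 21.5 and 16.9 in *tcer-1(glm27)*.

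Other secreted epidermal families were mixed, beside 20.2% of all genes called higher and 7.51% lower. The astacin metalloproteases, many of which act on matrix, had 18 of 36 higher (50%) and 4 lower (11.1%). *nas-25* was at 57.9, 64.3 and 46.8 in *tcer-1(tm1452)*, against 3.53, 7.31 and 4.54 in wildtype. The Hedgehog-related secreted proteins had 15 of 41 higher (36.6%) and 6 lower (14.6%). *grd-10* was at 601, 627 and 635 in *tcer-1(tm1452)*, against 34.2, 37.6 and 35.3 in wildtype (log2 fold change 4.08, standard error 0.11). The decreases included *wrt-1* and *wrt-2*, at log2 fold changes of -1.24 and -1.41. Their putative receptors, the Patched-related proteins, had 0 of 25 higher and 2 lower (8%, near the share of all genes), *ptr-25* (-2.42) and *ptr-19* (-1.08). Of 21 genes of the molting program 4 were higher and 5 lower, among them the nuclear receptor *nhr-25*, at 26.8, 11 and 17.3 in *tcer-1(tm1452)*, against 102.3, 99.9 and 93.5 in wildtype. The fibrillin-like *fbn-1*, a part of the matrix over the embryo's skin, was at 145, 179 and 117 in *tcer-1(tm1452)*, against 526, 342 and 409 in wildtype. The transthyretin-related genes, a large nematode family of secreted proteins, had 30 of 55 higher and 2 lower, and the small fipr peptides, named for their relation to fungus-induced proteins, had 17 of 21 higher and 0 lower. *fipr-7* was at 53.7, 95.7 and 95.5 in *tcer-1(tm1452)*, against 1.69, 3.16 and 0 in wildtype. These last 2 lists were added after the values of their members had been seen.

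Most muscle genes rose. Of 33 genes of the sarcomere and its attachments, 26 were called higher (78.8%, beside 20.2% of all genes) and 0 lower. Their median log2 fold change was 1.5. Their summed normalized count was 278240, 314379 and 311945 in *tcer-1(tm1452)*, against 97361, 105103 and 86205 in wildtype. The ratio of means was 3.13, and *tcer-1(glm27)* was much closer to wildtype, at 124059 to 131856, with 0 of the 33 called. The difference between the alleles was itself past the threshold at 19 of the 33 genes. The myosin heavy chain *myo-3* was at 11800, 13535 and 14189 in *tcer-1(tm1452)*, against 2951, 3082 and 2653 in wildtype (log2 fold change 2.18, standard error 0.07, limma adjusted p = 3.6e-12). Twitchin, *unc-22*, and troponin T, *mup-2*, had log2 fold changes of 2.14 and 2.05, and the major body wall myosin *unc-54* one of 1.94. *hlh-1*, the MyoD factor that specifies body wall muscle, was at 47.2, 41.6 and 30.4 in *tcer-1(tm1452)* and at 41.8, 39.2 and 42.0 in wildtype, and was not called (log2 fold change -0.07).

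Pharynx genes and basement membrane genes moved in the same direction. Of 27 tested pharynx genes 14 were higher (51.9%) and 1 was lower (3.70%), beside 20.2 and 7.51% of all genes. The pharyngeal myosins *myo-1* and *myo-2* had log2 fold changes of 1.52 and 1.42, and the troponin T *tnt-4* one of 1.90, with 848, 948 and 1027 in *tcer-1(tm1452)*, against 243, 276 and 235.2 in wildtype. The other pharyngeal group was the abu family, glutamine-rich proteins of the pharyngeal cuticle, with 8 of 12 higher and a median of 2.91, *abu-1* at the top with 54.5, 115 and 79.5 in *tcer-1(tm1452)*, against 1.77, 0 and 0 in wildtype. Of the exonic 50-base stretches of *abu-1*, 82.4% recur elsewhere, so it is uncertain as a single gene. The 1 lower pharynx gene was *phat-5*, of the pharyngeal glands, at 0.834, 0 and 1.09 in *tcer-1(tm1452)*, against 23.8, 23 and 12.5 in wildtype. Of 10 basement membrane genes 7 were higher. All 10 were above wildtype at an adjusted p under 0.05, beside 35.3% of all genes. The type IV collagen *let-2* was at 29133, 31041 and 33191 in *tcer-1(tm1452)*, against 11203, 10859 and 9838 in wildtype, and perlecan, *unc-52*, had the largest log2 fold change, 1.83 (standard error 0.05).

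Neuronal genes rose more modestly. Of 90 tested neuropeptide genes 33 were called higher (36.7%, beside 20.2% of all genes) and 2 lower, with a median log2 fold change of 0.88. At any size 64 were higher, beside 35.3% of all genes. *nlp-4* was at 57.9, 72.1 and 90.2 in *tcer-1(tm1452)*, against 6.14, 4.18 and 4.56 in wildtype, and *nlp-26* at 607, 393 and 624, against 86.5, 79.7 and 59.7 in wildtype. Of 33 pan-neuronal and transmitter genes 12 were higher and 0 lower. The GABA-synthesis gene *unc-25* was at 459, 474 and 503 in *tcer-1(tm1452)*, against 206, 188 and 203 in wildtype (log2 fold change 1.26, standard error 0.09). The synaptic marker *rab-3* had a log2 fold change of 0.93 and the kinesin *unc-104* one of 0.80, both short of the fold needed for a call, and synaptobrevin, *snb-1*, which is also expressed outside neurons, one of -0.23. Ligand-gated ion channels had 25 of 65 higher and 2 lower, in a list added after values were seen. Cilium genes did not follow, with 1 of 30 higher (3.33%) and 3 lower (10%), beside 20.2 and 7.51% of all genes. The largest decrease was at *nphp-1* (log2 fold change -2.50). Of 1631 chemoreceptor genes in the table only 140 passed the minimum, and of these 23 were higher and 14 lower, near the share of all genes.

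**Figure D3:**
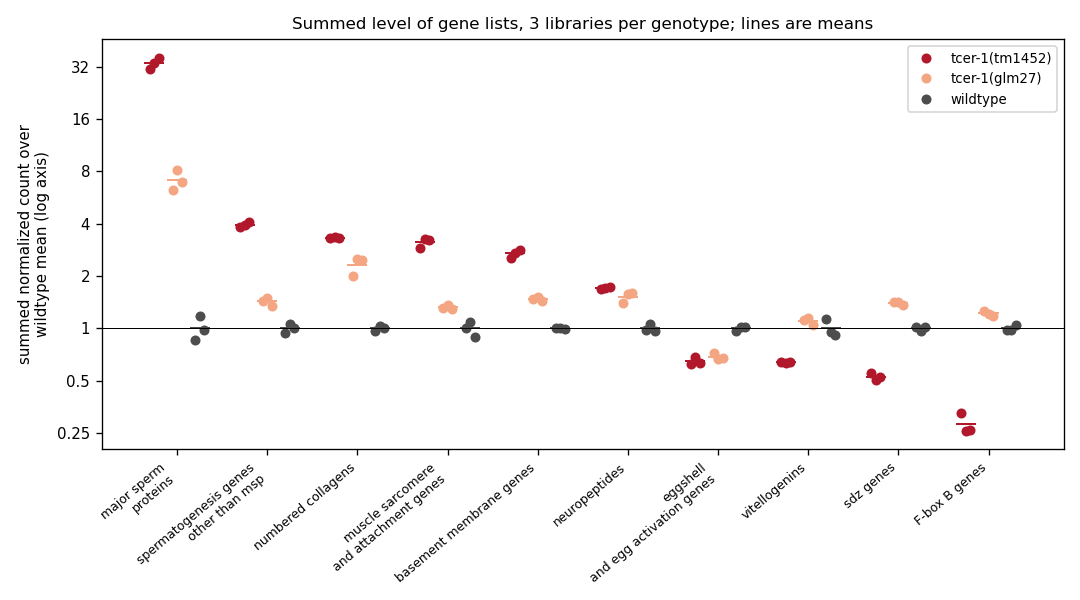
Summed normalized count of 10 gene lists in each library, divided by the wildtype mean, on a log axis. Points are libraries (3 each of *tcer-1(tm1452)*, *tcer-1(glm27)* and wildtype) and short lines are means. The sperm, collagen, muscle and basement membrane sums are highest in *tcer-1(tm1452)*, the eggshell sum is below wildtype in both mutants, and the vitellogenin, sdz and F-box B sums are below wildtype only in *tcer-1(tm1452)*.

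Intestinal markers had shares of calls below or near those of all genes, which were 20.2% higher and 7.51% lower. Of 16 intestinal markers 2 were higher (12.5%), the intermediate filament genes *ifb-2* and *ifc-2* (log2 fold changes 1.26 and 1.21). The 1 called lower (6.25%) was the cathepsin B protease *cpr-1*, at 8925, 9306 and 8858 in *tcer-1(tm1452)*, against 25246, 23936 and 26760 in wildtype. At any size 8 of the 16 were higher and 2 lower, beside 35.3 and 34.1% of all genes. *elt-2*, the GATA factor of the intestine, had a log2 fold change of 0.54, the marker *act-5* one of 0.69 and the esterase *ges-1* one of -0.11. The vitellogenins are yolk proteins that the intestine supplies to oocytes. All 6 were below wildtype at an adjusted p under 0.05, beside 34.1% of all genes. Past the fold threshold was 1 of them, *vit-3* (log2 fold change -1.14, standard error 0.08). The summed vitellogenin count was 902255, 899765 and 911126 in *tcer-1(tm1452)*, against 1590294, 1347866 and 1300278 in wildtype. The groups did not overlap, and the *tcer-1(glm27)* libraries, at 1472511 to 1614438, lay within or above the wildtype range. The copies *vit-3*, *vit-4* and *vit-5* are much alike in sequence, and 78.0% of the exonic 50-base stretches of *vit-3* recur elsewhere.

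Several metabolic and detoxification families had shares of increases near the 20.2% of all genes. The UDP-glucuronosyltransferases, which attach sugars to toxins, had 16 of 65 higher (24.6%) and 2 lower, and the glutathione S-transferases 11 of 44 higher (25%) and 1 lower. *gst-24* was at 538, 469 and 581 in *tcer-1(tm1452)*, against 27.2, 27.2 and 19.3 in wildtype (log2 fold change 4.38, standard error 0.21). The cytochrome P450 genes had 2 of 69 higher (2.90%) and 9 lower (13%), beside 7.51% of all genes lower, and *cyp-29A4* was at 13.4, 9.17 and 9.79 in *tcer-1(tm1452)*, against 141, 117 and 109 in wildtype. The fatty acid breakdown genes had 14 of 79 higher (17.7%) and 4 lower. The acyl-CoA dehydrogenase gene *acdh-8* was at 460, 511 and 526 in *tcer-1(tm1452)*, against 18.5, 6.27 and 13.6 in wildtype, and the synthetase genes *acs-10* and *acs-15* had log2 fold changes of 5.11 and 5.06. The lysosomal lipase *lipl-3* was lower, at -2.55. Among 19 desaturases and elongases, 3 were higher and 1 lower. The stearoyl-CoA desaturase *fat-7* was at 8289, 8860 and 8394 in *tcer-1(tm1452)*, against 2959, 2988 and 3488 in wildtype, and *elo-7* had a log2 fold change of 4.66. Cytosolic ribosomal protein genes were above wildtype at 73 of 79 at any size, beside 35.3% of all genes. Only 3 reached the fold for a call, *rpl-42*, *rpl-11.2* and *rpl-25.1*. The 12 genes of mitochondrial DNA were not called, with a median of 0.62.

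Stress and immune genes did not share a direction. Of the 52 heat shock and DnaJ genes 11 were higher (21.2%, beside 20.2% of all genes) and 0 lower. At any size 29 were lower, beside 34.1% of all genes. The exonic 50-base stretches of *hsp-16.1*, *hsp-16.11*, *hsp-16.48* and *hsp-16.49*, small heat shock genes, all recur elsewhere, so the sums of these copies are given. *hsp-16.1* plus *hsp-16.11* was at 8079, 7992 and 8237 in *tcer-1(tm1452)*, against 2065, 1876 and 2113 in wildtype, a ratio of 4.02. *hsp-16.48* plus *hsp-16.49* was at 5168, 5184 and 5236, against 1619, 1442 and 1606, a ratio of 3.34, although *hsp-16.48* alone was at 810, 0 and 11.5 in wildtype. The inducible *hsp-70* was at 3305, 3621 and 3553 in *tcer-1(tm1452)*, against 946, 935 and 1032 in wildtype. Of 10 tested targets of the insulin pathway's factor DAF-16, 20% were higher and 10% lower, beside 20.2 and 7.51% of all genes. The superoxide dismutase *sod-3* (log2 fold change 1.98) and ferritin *ftn-1* (2.23) were higher and the metallothionein *mtl-1* (-1.66) was lower.

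Immune effectors fell more often than they rose in some families, beside 20.2% of all genes called higher and 7.51% lower. Lysozymes had 1 of 13 higher (7.69%) and 4 lower (30.8%), with *lys-6* at 79.6, 85.1 and 87.8 in *tcer-1(tm1452)*, against 213, 259 and 233 in wildtype. In *tcer-1(glm27)* *lys-6* was at 431, 362 and 436, above wildtype, and 5 of the 13 lysozymes fell below it in *tcer-1(tm1452)* by the direct test of the alleles. Among 16 tested genes used as reporters of the response to the *Pseudomonas aeruginosa* strain PA14, 4 were lower (25%) and 2 higher (12.5%). Those lower were *clec-4*, *sysm-1*, *C17H12.8* and *irg-2*, and those higher were *irg-4* and *clec-60*, in animals that had not met the pathogen. *clec-4* was at 11.7, 19.7 and 21.8 in *tcer-1(tm1452)*, against 92.7, 111 and 134 in wildtype. The C-type lectins, a family of carbohydrate-binding proteins that includes immune effectors and sperm proteins, had 37 of 159 higher and 20 lower. The largest increases were *clec-79*, *clec-117* and *clec-153*, at log2 fold changes of 5.45, 5.31 and 5.29. The epidermal antimicrobial peptides had 4 of 14 higher (28.6%) and 2 lower (14.3%), and *nlp-30* was at 48.1, 31.9 and 48.3 in *tcer-1(tm1452)*, against 11.4, 18.8 and 12.5 in wildtype.

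Oocyte and germline genes were slightly lower as groups, with few calls at 2-fold. None of the 16 eggshell and egg activation genes was called, but 14 were lower at any size, beside 34.1% of all genes, and the median log2 fold change was -0.64. The oocyte yolk receptor *rme-2* had a log2 fold change of -0.70, the RNA-binding oocyte proteins *oma-1* and *puf-5* ones of -0.85 and -0.68, and the chitin-binding eggshell gene *cbd-1* one of -0.61. Of 21 maternal RNA-binding proteins 19 were lower at any size and 1 was called, *mex-6*, at 4135, 4193 and 4139 in *tcer-1(tm1452)*, against 9513, 8293 and 8129 in wildtype. DNA replication genes had 26 of 27 lower at any size, with *rnr-2*, a ribonucleotide reductase subunit, at -0.94 and none called. Meiotic chromosome genes, with a median of -0.30, and P granule genes, with -0.46, were lower at any size at 22 of 28 and 9 of 11. Of the distal germline markers, *glp-1*, the Notch receptor of germline stem cells, had a log2 fold change of -0.50, the axis protein *him-3* one of 0.10 and *glh-1* one of 0.00. For these 5 lists the *tcer-1(glm27)* medians were -0.58, -0.65, -0.53, -0.42 and -0.55, in the order eggshell, maternal, replication, meiotic and P granule genes. Proteasome subunits and splicing factors, expressed in most cells, were lower at any size at 32 of 33 and 38 of 42, with medians of -0.40 and -0.30.

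The families with the highest shares of decreases were F-box and zygotic genes, and they were added to the lists after the values of their members had been seen, so their counts describe these libraries and support nothing by themselves. F-box proteins bring substrates to SCF ubiquitin ligases, and the worm genome holds several expanded families of them. Of 106 tested F-box B genes (113 in the table), 92 were called lower and 1 higher, *fbxb-36*, beside 7.51% of all genes lower, and the median log2 fold change was -2.05. Their summed normalized count was 1267, 998 and 1010 in *tcer-1(tm1452)*, against 3784, 3782 and 4051 in wildtype, and *tcer-1(glm27)* was above wildtype, at 4887, 4711 and 4591. *fbxb-2* was at 1.68, 6.57 and 2.18 in *tcer-1(tm1452)*, against 40.6, 41.8 and 39.7 in wildtype (log2 fold change -3.38, standard error 0.34, limma adjusted p = 7.53e-07). *fbxb-75* was at 16.7, 3.95 and 12 in *tcer-1(tm1452)*, against 98, 93 and 117 in wildtype. Few members share much sequence, since 3 of the 113 have at least 50% of their exonic 50-base stretches elsewhere.

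The other F-box families and their partners showed the decrease less. F-box C genes had 24 of 50 lower and 2 higher, with *fbxc-18* at 27.6, 17.6 and 17.4 in *tcer-1(tm1452)*, against 101, 111 and 121 in wildtype. F-box A genes had 13 of 159 lower (8.18%) and 16 higher (10.1%), beside 7.51 and 20.2% of all genes, and *fbxa-202* was at 74.6, 49.9 and 74.1 in *tcer-1(tm1452)*, against 1.77, 2.09 and 0 in wildtype. The MATH and BTB genes, adaptors of another class of ubiquitin ligase, had 15 of 91 lower and 15 higher. The skr genes, relatives of the Skp1 subunit that binds F-box proteins, had 9 of 20 lower and 0 higher. Those lower were *skr-7* to *skr-14* and *skr-21*, and *skr-9* was at 56.9, 45.5 and 47.4 in *tcer-1(tm1452)*, against 211, 228 and 247 in wildtype (log2 fold change -2.18, standard error 0.11). In *tcer-1(glm27)* 0 of the 20 skr genes were lower than in wildtype.

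The lists that follow stand beside 7.51% of all genes called lower and 20.2% higher. The sdz genes are named as zygotic transcripts that depend on the maternal factor SKN-1. Of 34 tested, 26 were lower (76.5%) and 2 higher, *sdz-3* and *sdz-24*, with a median log2 fold change of -1.76. *sdz-4* was at 17.6, 7.89 and 13.1 in *tcer-1(tm1452)*, against 95.3, 108 and 110 in wildtype. The T-box transcription factors had 14 of 18 lower and 1 higher, *tbx-34*, with a median of -1.60, but 8 were lower with a minimum mean of 10 and 9 with a pseudocount of 5. *tbx-37* and *tbx-38*, which act together in early mesoderm, were at 3.34, 1.32 and 6.55 and at 4.18, 6.59 and 7.64 in *tcer-1(tm1452)*, against 28.2, 31.3 and 26.1 and 41.4, 40.7 and 30.7 in wildtype. *tbx-30* and *tbx-42* carried identical values, so that they count as 1 measurement. Of 27 regulators of embryonic cell fate, which overlap with the T-box list, 12 were lower and 0 higher. The endoderm GATA factors *end-1* and *end-3* were at 6.65, 5.31 and 5.48 and at 10.0, 9.26 and 6.56 in *tcer-1(tm1452)*, against 22.0, 24 and 39.8 and 25.5, 42.9 and 29.6 in wildtype. The homeobox gene *ceh-51* of the MS lineage was at 4.16, 6.63 and 9.86 in *tcer-1(tm1452)*, against 29.9, 37.6 and 39.8 in wildtype. For each of these genes the 3 *tcer-1(tm1452)* libraries lay below the 3 wildtype libraries.

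Over all genes 7.51% were called lower and 20.2% higher. Of 12 genes of the embryonic matrix and hatching, 4 were called lower (33.3%), *dpy-14*, *hch-1*, *fbn-1* and *noah-1*, and 0 higher. The first pair was among the 10 largest decreases of all genes, as were *hil-7* and *ifa-3*, which are named here by that size and belong to no embryonic list. *hch-1*, an astacin protease needed for hatching, was at 0.841, 0 and 0 in *tcer-1(tm1452)*, against 119, 94.0 and 89.6 in wildtype (log2 fold change -6.37, standard error 0.27, limma adjusted p = 5.93e-11). The collagen gene *dpy-14* was at 3.35, 10.5 and 3.27 in *tcer-1(tm1452)*, against 1122, 723 and 867 in wildtype. The linker histone-like *hil-7* was at 2.75, 5.62 and 3.78 in *tcer-1(tm1452)*, against 226, 151 and 173 in wildtype, and the intermediate filament gene *ifa-3* at 2.52, 1.31 and 3.26, against 119, 98.2 and 86.2. In *tcer-1(glm27)* none of these 4 genes was called lower, and *hch-1* was above wildtype, at 249, 221 and 197. The other large decreases were at *trt-1*, the telomerase reverse transcriptase gene, with 30.6, 17.9 and 33 in *tcer-1(tm1452)*, against 1952, 1762 and 1930 in wildtype, and at *mtre-1*, with 1.66, 0 and 5.49, against 184, 131 and 137. Both were lower in *tcer-1(glm27)* too, with *trt-1* at 40.7, 38 and 43.6. Genes on the opposite strand overlap both, *hlh-16* and *pqn-26* at *trt-1* and *apn-1* at *mtre-1*. The strand setting of the counting is not known, so reads of these overlapping genes may not be fully separated. Histone genes had 18 of 76 lower (23.7%, beside 7.51% of all genes) and 1 higher, the H3 variant *his-70*. Without *tcer-1(tm1452)* replicate 2, 11 were lower. Of the 6 called members that share under 50% of their sequence with other genes, *hil-7* and the linker histone *his-24* (log2 fold change -1.92) changed most. Identical copies such as *his-9* and *his-13* carried the same values, and their sum was at 2251, 480 and 1135 in *tcer-1(tm1452)*, against 1968, 3475 and 2376 in wildtype, with overlapping libraries.

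**Figure D4:**
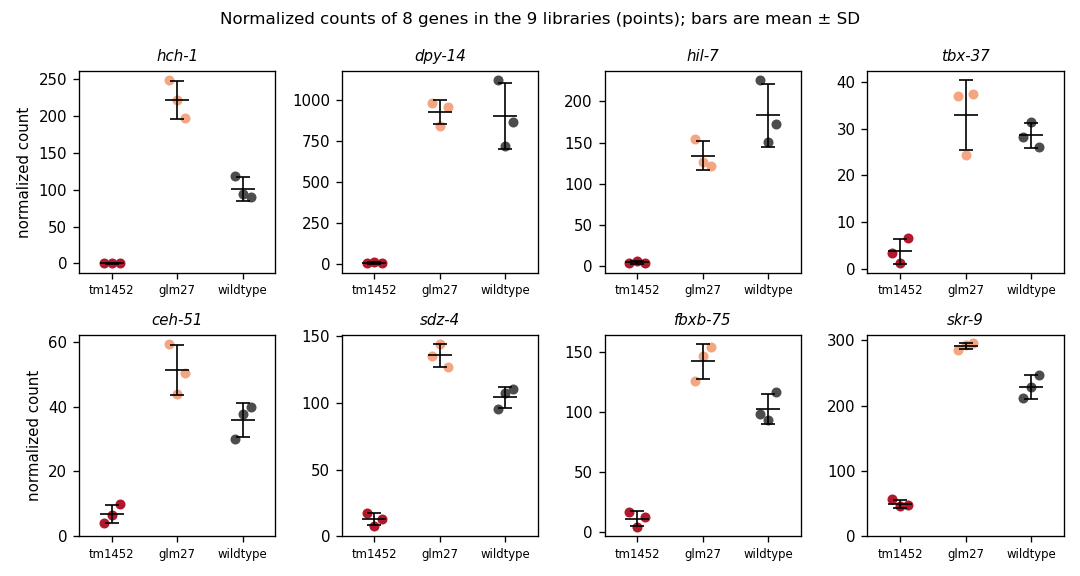
Normalized counts of 8 genes named for their decrease, in every library (points), with mean and SD (bars), for *tcer-1(tm1452)*, *tcer-1(glm27)* and wildtype (3 libraries each). In each panel the *tcer-1(tm1452)* points lie below all *tcer-1(glm27)* and wildtype points.

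The 2 alleles were then set side by side. Both comparisons with wildtype use the same wildtype libraries. In *tcer-1(glm27)* 2463 genes were higher than in wildtype (14.5%) and 353 lower (2.07%). The direct test of *tcer-1(tm1452)* against *tcer-1(glm27)*, which leaves wildtype out of the contrast, called 1941 genes higher (11.4%) and 1377 lower (8.08%). By this test *tcer-1(tm1452)* was lower at 97 of 106 F-box B genes, 24 of 34 sdz genes and 9 of 18 T-box factors. The medians of these 3 lists in *tcer-1(glm27)* against wildtype were 0.26, 0.18 and -0.22. The MSP genes were called higher at 30 of 30 in either allele, with a median of 2.72 in *tcer-1(glm27)*, and the direct test again found 30 of 30 higher in *tcer-1(tm1452)*. Collagens were higher at 94 of 131 in *tcer-1(glm27)*, with a median of 1.38, and 74 of 131 were higher still in *tcer-1(tm1452)*. The pud genes, small proteins named for their rise in insulin receptor mutants, were called higher than wildtype at 7 of 8 in *tcer-1(glm27)*. In *tcer-1(tm1452)* 2 of the 8 were higher and 1 was lower. The sum of the copies *pud-1.1* and *pud-1.2* was 289, 294 and 262 in *tcer-1(tm1452)*, against 252, 300 and 265 in wildtype, but 1866, 1602 and 1731 in *tcer-1(glm27)*. C-type lectins had 66 of 159 higher in *tcer-1(glm27)*, and the direct test found 49 of the 159 lower in *tcer-1(tm1452)*.

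**Figure D5:**
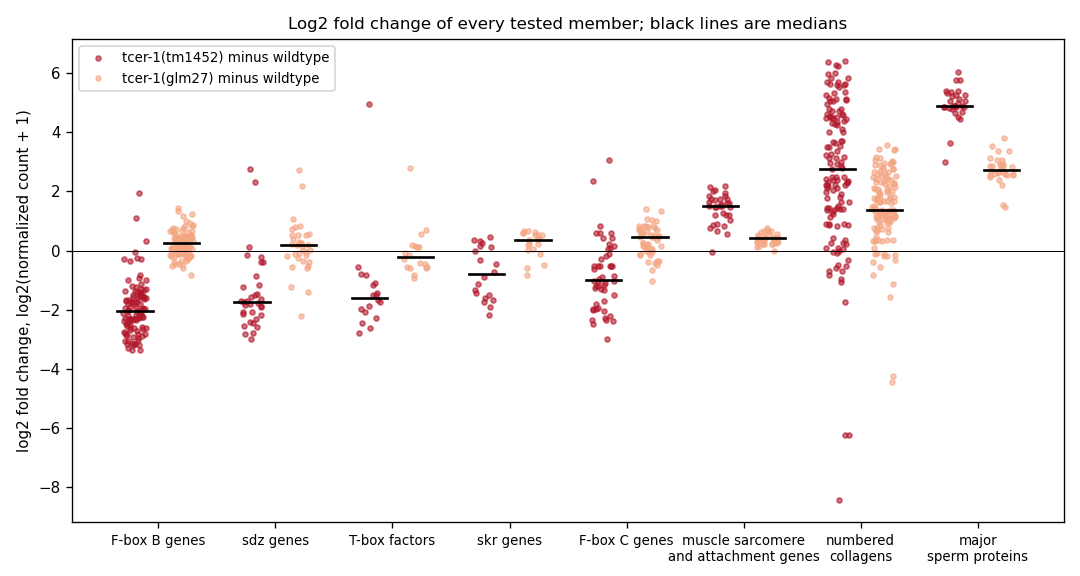
Log2 fold change against wildtype of every tested member of 8 gene lists, with *tcer-1(tm1452)* in red and *tcer-1(glm27)* in light red, and medians as black lines. F-box B, sdz and T-box medians lie between -2.05 and -1.60 in *tcer-1(tm1452)* and between -0.22 and 0.26 in *tcer-1(glm27)*, while collagen and major sperm protein medians are above 0 in both.

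Beyond the lists, the tested genes were grouped by the letters of their symbols, which gave 154 classes with at least 10 tested members. In 12 classes at least 50% of the members were called higher, and in 24 no member was called. The lists covered 604 of the 3433 genes called higher and 349 of the 1280 called lower, so that most called genes had no place in a named family here. Genes called lower made up 11.4% of those tested on chromosome II, against 5.79 to 8.15% on the other nuclear chromosomes, and genes called higher made up 24.1% on chromosome IV, against 15.3 to 22.1% on the others. Pseudogenes were higher at 27.7% and lower at 15.2%, beside 19.9 and 7.14% of protein-coding genes.

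The tested genes were also split by the Argonaute proteins known to bind their 22G-RNAs, which are small RNAs that silence (WAGO class) or license (CSR-1 class) genes in the germline. Of 1841 tested WAGO class genes 256 were higher (13.9%) and 230 lower (12.5%), and of 3593 CSR-1 class genes, most of them germline genes, 22 were higher (0.612%) and 80 lower (2.23%). The 11629 genes in neither class included 3156 higher (27.1%) and 976 lower (8.39%). None of the MSP genes, 9 of the 131 collagens and 27 of the 106 F-box B genes were WAGO class genes, beside 1841 of all 17037 tested genes. The WAGO class gene *scrm-4*, a phospholipid scramblase, was at 777, 804 and 760 in *tcer-1(tm1452)*, against 45.8, 46 and 48.9 in wildtype. *C38D9.2*, the gene of largest increase, is a WAGO class gene too.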

How the data were processed

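The authors deposited normalized counts per gene, a signal without a physical unit. Paired-end reads from rRNA-depleted RNA were trimmed with fastp, aligned and counted with STAR and RSEM on the WormBase WS279 release, and divided by DESeq2 size factors, per the labels and the study's methods. The strand setting of the counting is not given in the sources used here. Reads of genes that overlap on opposite strands may therefore not be separated. Among the decreases this touches *trt-1*, *mtre-1*, *col-74*, *col-121* and *cut-3*. Among the increases it touches *msp-33*, *msp-38*, *col-91*, *col-147*, *bli-2*, *dpy-8* and *scrm-4*, and other named genes overlap too. From the small RNA table, whose RPM values the authors made with tinyRNA, only the class of each gene was used. Approximate depth came from the smallest step between values in each library, taken as 1 read, but only 29.9 to 71.2% of low values were whole reads, so no count test was run.

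One limma 3.58.1 fit (R 4.3.3, lmFit, contrasts.fit, eBayes with a mean-variance trend) covered all 9 libraries on log2(normalized count + 1), which understates the change of low genes, with Benjamini-Hochberg adjustment over 17037 genes. It was tested on simulated data. Summed lists were compared by exact permutation tests. Other steps ran in Python 3.11.15 (matplotlib 3.10.9 for plots, scipy 1.17.1 for tests, pandas 2.3.3 and numpy 2.4.6 for tables).

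Members and lists were chosen with earlier results of these data known. There were 53 gene lists, by symbol or name, and 10 were added after their members' values were seen. Genes chosen for naming were *tcer-1*, cell type markers, 5 genes of the study and the 3 largest differences from *tcer-1(glm27)* each way. With them came the 10 largest changes in each direction among called genes without overlap and with a higher-group mean of at least 10. Each list gave up to 3 called members in the direction most of its calls took, or 2 of highest mean. Not all of these are printed in the text, and of the 5 study genes only *scrm-4* is. Other genes were named after their values were seen. Symbols and positions follow WBcel235. Sequence shared between genes is the percent of a gene's exonic 50-base stretches that recur in the genome. Alternatives changed the pseudocount, filter, scaling, libraries, trend, block and thresholds.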

Additional observations from a re-analysis of the deposited data

Results flagged for a closer look

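The effects of the alleles differed, by the test of *tcer-1(tm1452)* against *tcer-1(glm27)* in the shared fit, at 1941 genes higher and 1377 genes lower in *tcer-1(tm1452)* (limma, adjusted p under 0.05 and at least 2-fold). These were 11.4 and 8.08% of all genes. Only lists with at least 50% of their tested members different in 1 direction are given first. Higher in *tcer-1(tm1452)* were 30 of 30 major sperm protein genes, 53 of 69 other spermatogenesis genes and 74 of 131 numbered collagens. So were 11 of 14 body-shape collagens, 19 of 33 muscle genes and 18 of 27 pharynx genes. Lower in *tcer-1(tm1452)* were 97 of 106 F-box B genes, 24 of 34 sdz genes and 9 of 18 T-box factors. So were 7 of 12 embryonic matrix and hatching genes and 6 of 8 pud genes. Just under 50% were fipr genes, with 10 of 21 higher, and histones and F-box C genes, with 36 of 76 and 23 of 50 lower.

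The single genes with the largest differences between the alleles were 3 in each direction. *pud-2.1* differed by -8.38 on the log2 scale and *his-20* by -7.42, but both have a copy with the same sequence, and *his-20* was at 291, 0 and 0 in *tcer-1(tm1452)*, against 447, 474 and 0 in wildtype. The sum of *pud-2.1* and *pud-2.2* was 309, 281 and 279 in *tcer-1(tm1452)*, against 1643, 1393 and 1553 in *tcer-1(glm27)* and 229, 266 and 205 in wildtype. *hch-1* differed by -7.50, from 0.841, 0 and 0 in *tcer-1(tm1452)* and 249, 221 and 197 in *tcer-1(glm27)*. *Y73B3B.1* (4.22), the chemoreceptor gene *srw-71* (4.15) and *F08G2.5* (4.10) were the largest differences in the other direction. *F08G2.5* was at 689, 611 and 715 in *tcer-1(tm1452)*, against 37.5, 45.1 and 32.5 in *tcer-1(glm27)* and 21.9, 18.8 and 25.1 in wildtype.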

How the results depend on the processing

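Of 3573 values of the 211 named genes under the alternatives, 3550 kept their side of the threshold, 18 lost the call (at *ceh-18*, *che-2*, *far-7*, *mex-6*, *nhr-235*, *ptr-19* and *spe-9*) and 5 gained one. Among genes called in either setting 0 changed sign, and sign changes at genes called in neither were not counted. Of 1008 values of 63 list medians 32 moved by more than the median standard error of their members. Among medians of at least 1 in size 0 changed sign, and sign changes of smaller medians were not counted. With no fold threshold, the counts were 6019 genes higher and 5811 lower in *tcer-1(tm1452)* than in wildtype, 4651 higher and 3370 lower than in *tcer-1(glm27)*, 64 neuropeptides higher, and 20 embryonic fate regulators and 43 histones lower, where more genes qualify by construction. T-box factors called lower numbered 8 with a minimum mean of 10, which tests fewer genes, and 9 with a pseudocount of 5, where low values shrink. Without members that share sequence, an alternative chosen after seeing the data, 9 major sperm protein genes were higher and 6 histones lower. Leaving out each replicate in turn gave 3301 to 3466 genes higher and 1213 to 1306 lower than in wildtype, and 11 to 23 histones lower, with 11 without *tcer-1(tm1452)* replicate 2, the cause of which was not tested. Same-numbered libraries did not deviate together, with correlations of 0.08 or less, so the replicate block, which gave 3444 genes higher and 1285 lower, is not a paired analysis of shared samples. The mean log2 scaling factors of *tcer-1(tm1452)* differed from those of wildtype by at most 0.04 under the alternative scalings, and from those of *tcer-1(glm27)* by at most 0.065. Genes near 1 read in every library are not resolved at this depth.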
